A study of Homo sapiens with 6 samples.

Results

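The genes described here are the host transcripts of small RNAs. They were chosen by symbol from the deposited table and comprise the numbered small nucleolar RNA host genes (SNHG), the genes named as microRNA host genes (MIR followed by a name and HG), and the named long noncoding RNAs GAS5, DANCR, ZFAS1, EPB41L4A-AS1, MALAT1, OIP5-AS1 and NORAD. Of the 16834 genes in the table, 39 met this rule, namely 21 snoRNA hosts, 15 microRNA hosts, and MALAT1, OIP5-AS1 and NORAD, which host no annotated small RNA of either kind. EPB41L4A-AS1 has no symbol in the table, so it did not match, and it is given separately by its Ensembl identifier.

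The libraries came from HEK293-T Flp-In cells, an epithelial-like line of human embryonic kidney, in which 1 stable line carries ccTaggedRP as a single Flp-In insertion under the CAG promoter, kept under hygromycin B. All 6 libraries share this construct, a bicistronic pair of RPL10a fusions separated by a self-cleaving peptide. The 3 Flag-IPs recovered RNA with Flag-RPL10a-hCdt, which carries the Cdt1 degron, and the 3 HA-IPs recovered RNA with HA-RPL10a-hGem, which carries the Geminin degron. Cells were asynchronous, and the comparison asks which RNAs differ between ribosomes tagged in different phases of the cell cycle. The sources do not say whether the replicates came from separate cultures, so p-values measure the spread between these samples, which may be technical. Libraries held 23174532 to 44134833 reads on the listed genes. All 5 epithelial markers of a fixed list (KRT8, KRT18, KRT19, EPCAM, CDH1) were in the table, as were 6 of 10 kidney genes; CDH16, UMOD, AQP2 and NPHS1 had no row.

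Small nucleolar RNAs (snoRNAs) guide chemical modification and processing of ribosomal RNA, and most human ones are cut out of introns. In an ordinary host gene the spliced exons encode a protein, often of the translation apparatus, whereas in an SNHG gene they encode none that is well established. The spliced SNHG RNA can still reach the cytoplasm, meet ribosomes and be removed by nonsense-mediated decay, and several such genes start, as ribosomal protein genes do, with a run of pyrimidines (a 5' terminal oligopyrimidine motif). A microRNA host gene carries a hairpin in an intron or exon that the nuclear enzyme Drosha excises, and MIR17HG is the host of the miR-17-92 cluster, known as a target of MYC and E2F factors. A polyadenylated read in these libraries comes from the host transcript and does not measure the mature snoRNA or microRNA.

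In the GENCODE annotation, 20 of the 21 snoRNA hosts contained at least 1 annotated snoRNA or small Cajal body RNA (scaRNA). The entries numbered 49 in all, and 45 lay wholly within introns of the canonical transcript. The exception was GAS5, in which RefSeq lists 11 snoRNAs. All 15 microRNA hosts contained an annotated microRNA. Only 4 of these small RNAs had a row of their own in the table, inside SNHG3, SNHG17 and SNHG25.

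MIR17HG contained 6 microRNA hairpins, all in introns of the canonical transcript, at chr13:91350605-91351391 (plus strand) within the gene at chr13:91347686-91397592 of GRCh38. It is the host whose level differed most between the IPs, so the mature strands of its cluster that give the seed families are shown, from RefSeq (GRCh38.p14), with the seed (bases 2 to 8) in capitals. The first pair share 1 seed, miR-18a-5p differs within it, the miR-19 pair share another, and miR-92a-3p has its own. miR-22-3p is shown for contrast in sequence only. Its host MIR22HG had the most negative fold change of the 39, from 9 to 31 reads per library. The IP groups overlapped in MIR22HG, and the difference did not pass the test (adjusted p = 0.138 in limma).
miR-17-5p: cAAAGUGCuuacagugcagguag
miR-20a-5p: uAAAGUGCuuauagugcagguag
miR-18a-5p: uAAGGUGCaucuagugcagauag
miR-19a-3p: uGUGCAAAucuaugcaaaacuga
miR-19b-3p: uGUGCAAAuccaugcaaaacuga
miR-92a-3p: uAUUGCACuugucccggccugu
miR-22-3p: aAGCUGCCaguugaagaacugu

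The start sites of the hosts were read from the RefSeq promoter table, which held 36 of the 39 genes. A run was counted where a C followed by at least 4 pyrimidines (C or T) began within 10 bases of the listed start, on the transcript strand only. Such a run was present in 13 of 19 snoRNA hosts with an entry (68.4%), 6 of 14 microRNA hosts (42.9%) and 19 of 26 protein-coding snoRNA hosts (73.1%), beside 9091 of all 27305 RefSeq promoters (33.3%). The examples below run from 10 bases before the listed start to 20 bases from it on, with the run in capitals. They show 3 snoRNA hosts whose run began exactly at the listed start, then MIR17HG, and then OIP5-AS1, in which no run was found. The run of SNHG19, not shown, also began at its listed start. Other snoRNA hosts counted here had runs elsewhere in the window, as far as 10 bases before the start (SNHG29, SNHG7) or after it (SNHG26).
SNHG32, chr6:31834906-31834935 (plus): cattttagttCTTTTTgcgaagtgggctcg
ZFAS1, chr20:49278632-49278661 (plus): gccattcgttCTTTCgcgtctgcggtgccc
SNHG5, chr6:85678714-85678743 (minus): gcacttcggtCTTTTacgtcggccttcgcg
MIR17HG, chr13:91347677-91347706 (plus): gccgCCCTTCattcacccacatggtccttc
OIP5-AS1, chr15:41283980-41284009 (plus): ggcccaccgcagggttggccaccttgagaa

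Levels are given as normalized counts per kilobase of exon sequence, the only scale on which different genes are compared here. The 5 highest were SNHG32 with a mean of 728 (592 to 858 over the 6 libraries), NORAD with 685 (664 to 723), SNHG16 with 402 (372 to 436), SNHG1 with 234 (214 to 268) and SNHG3 with 205 (171 to 252). The ranges of SNHG32 and NORAD overlapped, SNHG16 was apart from both and from SNHG1, and SNHG1 overlapped SNHG3. MIR17HG ranked 29 of 39 with 12.2 normalized counts per kilobase (6.22 to 18.8), and MIR99AHG, whose annotated exons span the most sequence, was lowest with 0.522. In 34 neighbouring pairs of this order the ranges overlapped, so most neighbours were not separated. Many SNHG genes have annotated transcripts that retain introns, which lengthens the exon sequence. With the longest transcript as the length instead, SNHG32, NORAD and SNHG16 held the same ranks and SNHG29 and SNHG7 came next.

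**Figure D1:**
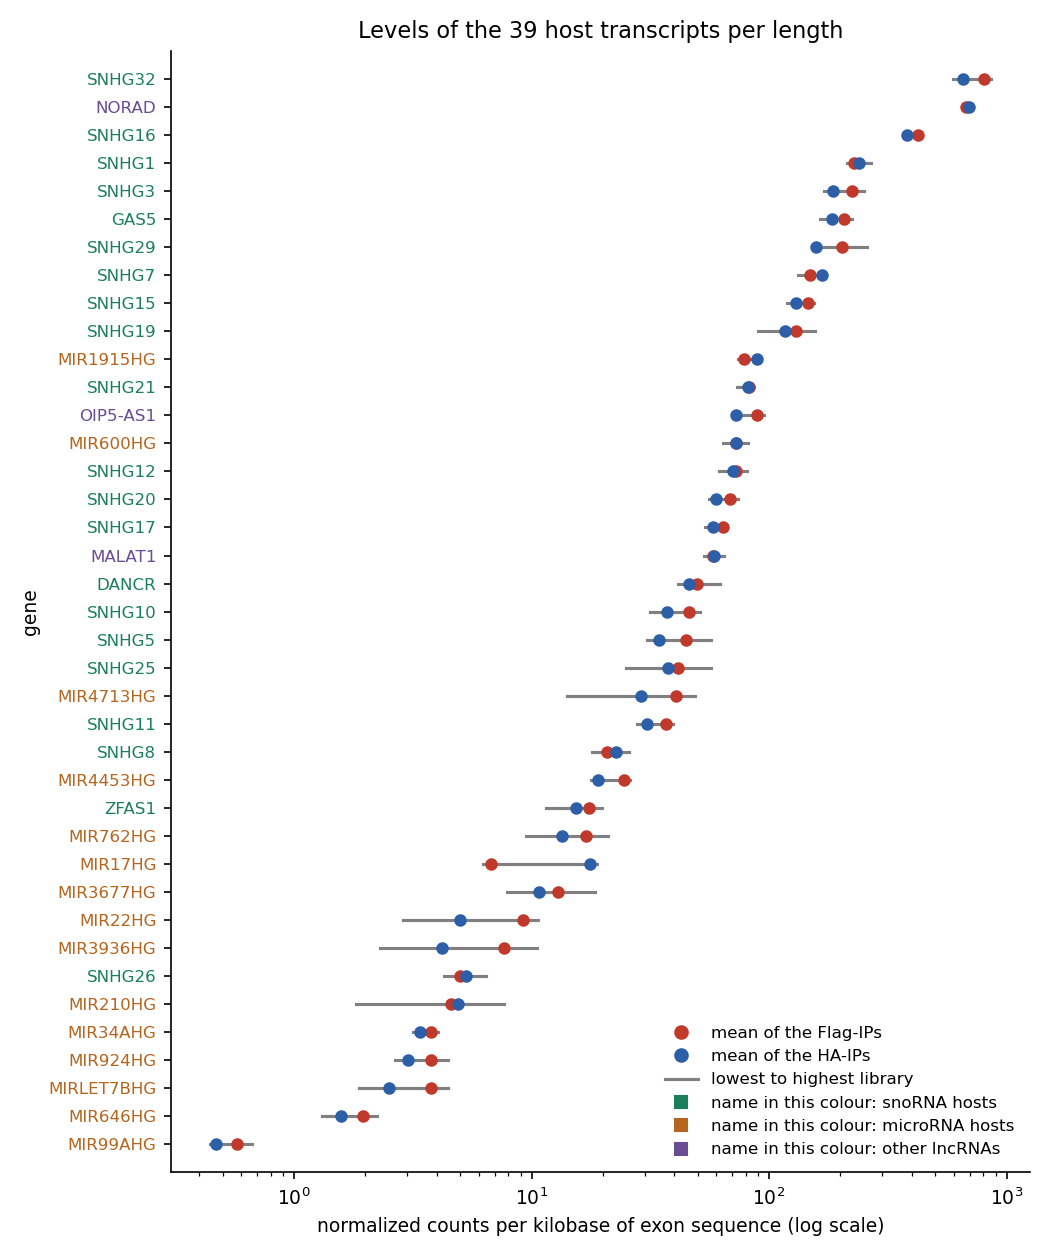
Levels of the 39 host transcripts as normalized counts per kilobase of exon sequence, on a log axis, with the mean of the 3 Flag-IPs in red, the mean of the 3 HA-IPs in blue and a grey bar from the lowest to the highest library; names are coloured by class. SNHG32 and NORAD lead with 728 and 685, microRNA hosts fill most of the lower ranks, and MIR17HG (12.2) has the widest gap between red and blue.

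MIR17HG was 2.59 times higher in the HA-IPs. Replicates 1 to 3 held 99.997, 81.9 and 80.2 normalized counts in the Flag-IPs, against 232, 208 and 243 in the HA-IPs. The groups did not overlap, and the gap between them was wider than the spread within either. On the scale of log2(normalized counts + 1) the difference was 1.38 (standard error 0.14, 95% interval 1.06 to 1.69, adjusted p = 0.00031 in limma with the Benjamini-Hochberg adjustment over all 16834 genes). It was the 20th highest fold change and had the 45th smallest adjusted p of the table. The reads behind it numbered 77 to 329 per library. As a single value, the exact permutation test (two-sided) gave p = 0.1, the smallest that 3 against 3 allow. MIR17HG is 1 of 16 members that overlap no other gene of the table. Leaving out any 1 library gave 1.32 to 1.47, with adjusted p-values up to 0.0046 in limma. All 6 libraries are bulk IPs, with no input library. More cells that contain the RNA, more of it per cell and a larger share of it recovered by the IP cannot be told apart.

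In limma, 3 of the 39 host transcripts passed an adjusted p of 0.05, beside 12.9% of all genes. MIR17HG was the 1 called higher in the HA-IPs, where 5.79% of all genes were called, and OIP5-AS1 and SNHG32 were called higher in the Flag-IPs, where 7.10% were. Among members averaging at least 100 normalized counts, 3 of 23 (13.0%) were called, near the 15.1% of all such genes. Of the 286 long noncoding RNA genes with such a mean, these members included, 2.10% were called. They were 2 higher in the HA-IPs and 4 higher in the Flag-IPs. edgeR and DESeq2 on recovered reads also called 3 members each, beside 12.7% and 13.5% of all genes. At an unadjusted p under 0.05 there were 10 of 39, beside 27.2%. Flag-IPs and HA-IPs did not overlap in 8 members, beside 32.2% of all genes. This was 1 member with higher HA-IPs and 7 with higher Flag-IPs, beside 16.1% of all genes in each direction.

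**Figure D2:**
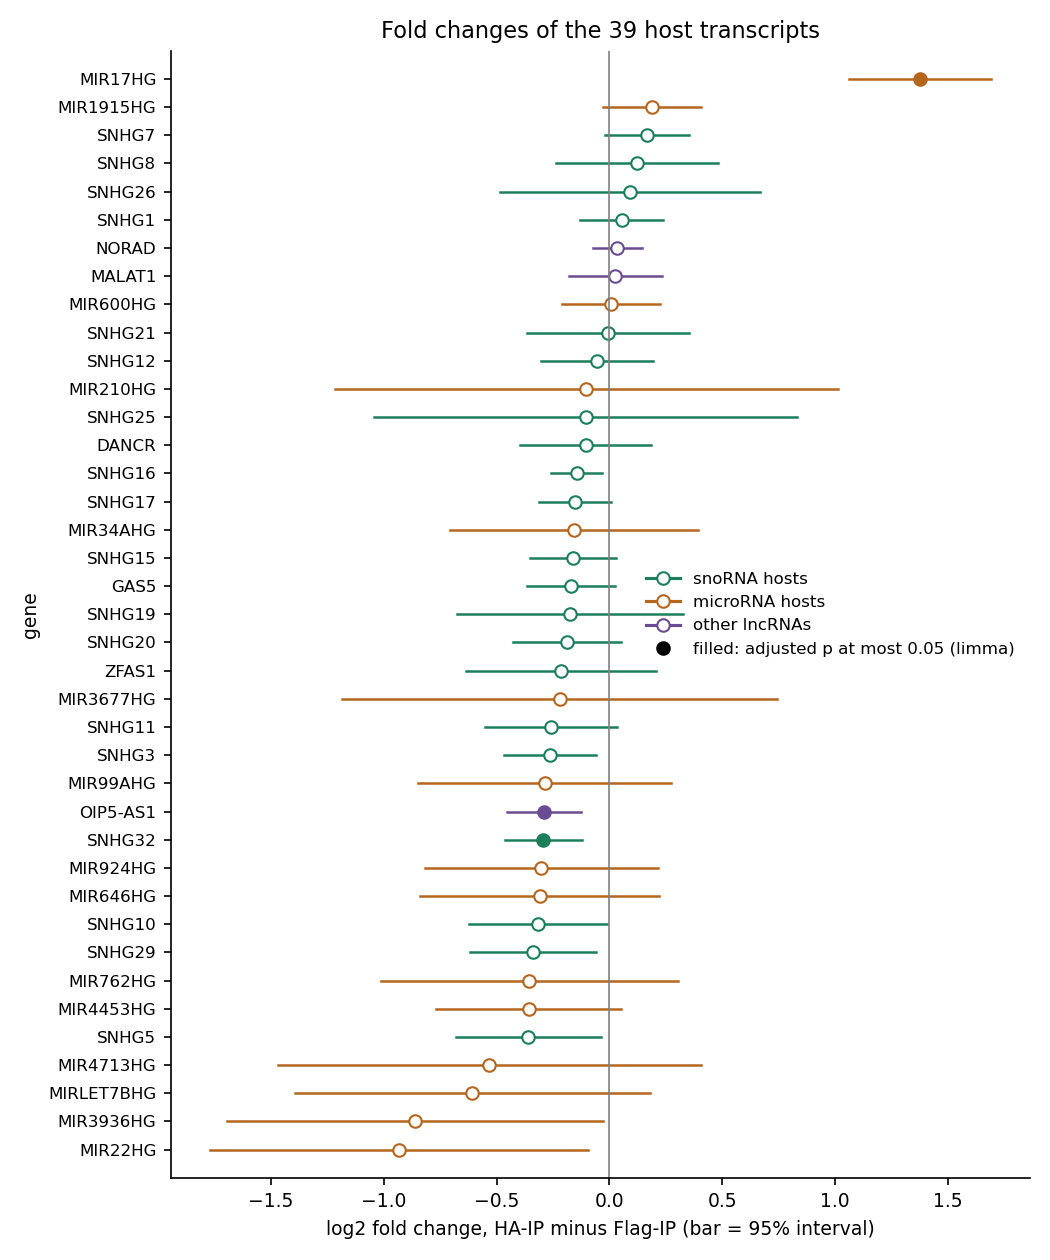
Log2 fold changes (HA-IP minus Flag-IP) of the 39 host transcripts in order, with 95% intervals from limma as bars, colours for the 3 classes and filled points for an adjusted p of at most 0.05. MIR17HG stands alone at 1.38, the next is MIR1915HG at 0.19, and most others lie left of 0, with wide bars for genes of few reads.

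OIP5-AS1, a conserved long noncoding RNA also known as Cyrano, was 1.22 times higher in the Flag-IPs. Replicates 1 to 3 held 2084, 2135 and 1742 normalized counts in the Flag-IPs, against 1610.3, 1648 and 1601 in the HA-IPs. The groups did not overlap, though Flag-IP replicate 3 lay nearer to the HA-IPs than to the other Flag-IPs. On the log2 scale the HA-IPs were at -0.29 relative to the Flag-IPs, with a standard error of 0.074 (adjusted p = 0.027 in limma). The gene overlaps OIP5 on the opposite strand over 13120 bases and NUSAP1 on the same strand over 1599 bases. OIP5 had a log2 fold change of -0.21 (adjusted p = 0.36 in limma), and since the strand setting of the counting is not given in the sources used here, reads of both strands cannot be told apart. With 1 library left out, OIP5-AS1 was called in 2 of 6 fits, those without Flag-IP replicate 1 or 3.

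SNHG32, which carries SNORD48 and SNORD52 in its introns, was 1.23 times higher in the Flag-IPs. Replicates 1 to 3 held 1545, 1369 and 1417 normalized counts in the Flag-IPs, against 1067, 1179 and 1293 in the HA-IPs. The groups did not overlap, with HA-IP replicate 3 nearest to the Flag-IPs. Its log2 fold change was -0.29, with a standard error of 0.078 (adjusted p = 0.031 in limma), and no other gene of the table overlaps it. With 1 library left out, it was called in 2 of 6 fits, those without Flag-IP replicate 3 or HA-IP replicate 3. After trends with GC content and exon length were removed, its log2 fold change was -0.17 (adjusted p = 0.084 in limma).

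The other abundant snoRNA hosts did not pass the threshold. SNHG16 had 2516, 2431 and 2368 normalized counts in the Flag-IPs, against 2258, 2209 and 2147 in the HA-IPs, which did not overlap, with a log2 fold change of -0.15 (95% interval -0.26 to -0.03, adjusted p = 0.089 in limma). SNHG3, host of the SNORA73 snoRNAs, had 1029, 902 and 819 in the Flag-IPs, against 699, 755 and 833 in the HA-IPs. Its groups overlapped in 1 pair, HA-IP replicate 3 above Flag-IP replicate 3, and its log2 fold change was -0.26 (95% interval -0.47 to -0.06, adjusted p = 0.090 in limma). It lies within RCC1 on the same strand, so these genes can share reads. SNHG1, which holds 7 annotated snoRNAs, had 952, 895 and 882 in the Flag-IPs, against 850.3, 931 and 1064 in the HA-IPs. The HA-IPs of SNHG1 spanned the Flag-IPs on both sides, and the 95% interval of its log2 fold change ran from -0.13 to 0.24 (adjusted p = 0.733 in limma).

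GAS5, a snoRNA host named for its rise in growth-arrested cells and a known substrate of nonsense-mediated decay, had 1101, 967 and 1004 normalized counts in the Flag-IPs, against 806, 906 and 1024 in the HA-IPs. HA-IP replicate 3 lay within the range of the Flag-IPs, and the log2 fold change was -0.17 (95% interval -0.37 to 0.02, adjusted p = 0.247 in limma). ZFAS1, host of 3 snoRNAs, had 149, 159.5 and 128 in the Flag-IPs, against 96.0, 123 and 165 in the HA-IPs, so that HA-IP replicate 3 was the highest of all libraries. Its log2 fold change was -0.21 (95% interval -0.64 to 0.21, adjusted p = 0.525 in limma). DANCR had 632, 420.0 and 473 in the Flag-IPs, against 437, 456 and 507 in the HA-IPs, where only Flag-IP replicate 1 stood above the rest. The log2 fold change of DANCR was -0.11 (95% interval -0.40 to 0.19, adjusted p = 0.671 in limma). EPB41L4A-AS1, matched by its identifier ENSG00000224032 and host of SNORA13, had 306, 215 and 207 in the Flag-IPs, against 164, 179 and 213 in the HA-IPs. The groups overlapped through HA-IP replicate 3, and its log2 fold change was -0.37 (95% interval -0.73 to -0.01, adjusted p = 0.166 in limma).

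MALAT1, a long noncoding RNA retained in nuclear speckles, had 673, 583 and 556 normalized counts in the Flag-IPs, against 615, 561 and 669 in the HA-IPs. The values were interleaved, with a log2 fold change of 0.03 (95% interval -0.18 to 0.23, adjusted p = 0.889 in limma) whose sign turned in 5 of 19 alternatives, among them the same total per library. NORAD, a cytoplasmic RNA that binds Pumilio proteins, had 3775, 3589 and 3599 in the Flag-IPs, against 3647, 3689 and 3904 in the HA-IPs. These also overlapped, and the log2 fold change was 0.04, with a 95% interval from -0.07 to 0.15 that was the narrowest of the 39 (adjusted p = 0.705 in limma). Its sign turned with quantile normalization and with the same total per library.

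**Figure D3:**
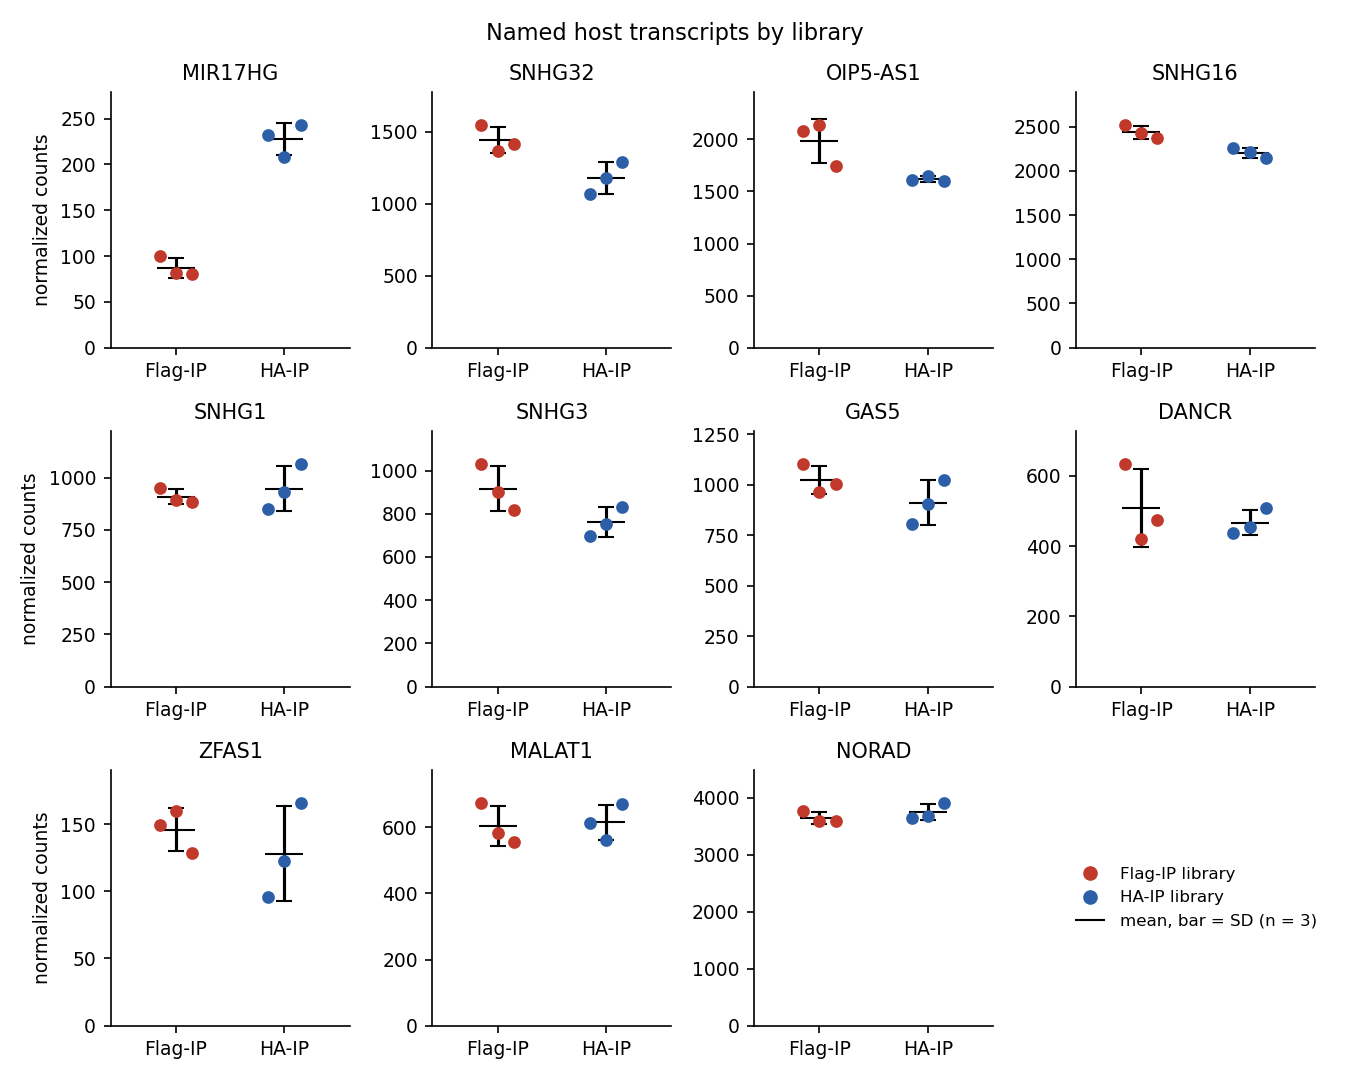
Normalized counts of 11 named host transcripts in each library, with every vertical axis starting at 0; points are libraries, the dash is the mean and the bar the SD (n = 3 in each group). The groups lie apart in MIR17HG, SNHG32, OIP5-AS1 and SNHG16 and overlap in the other 7.

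The microRNA hosts other than MIR17HG contained no called gene. Only 2 of these 14 averaged at least 100 normalized counts. MIR1915HG had 300.0 to 349.6 in the Flag-IPs and 342 to 375 in the HA-IPs, with a log2 fold change of 0.19 (95% interval -0.03 to 0.40, adjusted p = 0.245 in limma). MIR600HG had 382 to 488 and 424 to 449.6, with a log2 fold change of 0.01 (95% interval -0.21 to 0.23, adjusted p = 0.971 in limma), and it overlaps STRBP on the same strand. In limma, the 12 with a mean under 100 all had negative log2 fold changes, from -0.93 to -0.10, and none passed the test. MIR210HG, the nearest to 0 of these, had means of 10.7 in the Flag-IPs and 11.4 in the HA-IPs. Its log2 fold change was positive in edgeR and DESeq2 (0.02 and 0.06). MIR22HG had 28.6, 33.0 and 23.98 normalized counts in the Flag-IPs, against 13.4, 8.91 and 24.3 in the HA-IPs, from 9 to 31 reads per library. Its groups overlapped through HA-IP replicate 3, and its 95% interval ran from -1.77 to -0.10 (adjusted p = 0.138 in limma). MIRLET7BHG and MIR99AHG, which both carry let-7 microRNAs, were at -0.61 and -0.29 on the log2 scale (adjusted p = 0.31 and 0.52 in limma).

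Over all 39 members the median log2 fold change in limma was -0.17, beside -0.005 over all genes. By this fold change 30 were lower in the HA-IPs, beside 51.0% of all genes. Of the 23 members that averaged at least 100 normalized counts, 15 were lower, beside 46.7% of all genes with such a mean. Among the 286 long noncoding RNA genes with such a mean, these members included, 60.1% were lower, with a median of -0.06. The snoRNA hosts had a median of -0.16 with 17 of 21 lower, and the microRNA hosts other than MIR17HG a median of -0.30 with 12 of 14 lower. All 1725 long noncoding RNA genes of the table had a median of -0.07 with 58.7% lower, of which 8 (0.464%) were called toward the HA-IPs and 17 (0.986%) toward the Flag-IPs. These medians are descriptions, and members other than the 3 named above did not pass the test. The number of members lower in the HA-IPs was between 25, with quantile normalization, and 33, with the same total per library, wherever all 39 entered. With the test restricted to genes averaging at least 50 normalized counts, 3 microRNA hosts other than MIR17HG were left and their median was 0.008. With quantile normalization, 9 of the 14 were lower and their median was -0.10.

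The libraries of 1 group were not alike in the snoRNA hosts. Centred on each gene's mean, the median log2 value over the 21 snoRNA hosts was 0.15, 0.005 and 0.03 in Flag-IP replicates 1, 2 and 3 and -0.22, -0.07 and -0.0003 in HA-IP replicates 1, 2 and 3. HA-IP replicate 3 thus lay close to Flag-IP replicate 2. The members together made up 0.0650% to 0.0737% of each Flag-IP and 0.0590% to 0.0629% of each HA-IP, as a share of normalized counts.

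Markers of other tissues and of the labelled one moved with the groups. Of 25 heart muscle genes, 21 were in the table and all 21 were called higher in the Flag-IPs, where they took 0.512%, 0.365% and 0.233% of all normalized counts in replicates 1, 2 and 3. In HA-IP replicates 1, 2 and 3 they took 0.0109%, 0.00740% and 0.0482%, so HA-IP replicate 3 held the most among the HA-IPs as well. MYL7, PLN, NPPA and NPPB had no row, and CSRP3 was at 0 in HA-IP replicates 1 and 2. Called higher in the Flag-IPs were also 5 of 6 fibroblast genes in the table (0.0158% to 0.0248% of the counts against 0.00485% to 0.00670%), 3 of 4 endothelium genes and the 1 blood gene in the table. Of the 6 kidney genes, SLC12A1, PAX8 and PAX2 were called higher in the Flag-IPs (log2 fold changes -3.94, -3.57 and -0.79) and LRP2 in the HA-IPs (0.29). The 5 epithelial markers all had higher means in the HA-IPs, by 0.10 to 0.34 on the log2 scale, and EPCAM and CDH1 were called. The part of these genes in the lower values of the host transcripts in the HA-IPs, or in the higher values of MIR17HG there, was not tested.

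**Figure D4:**
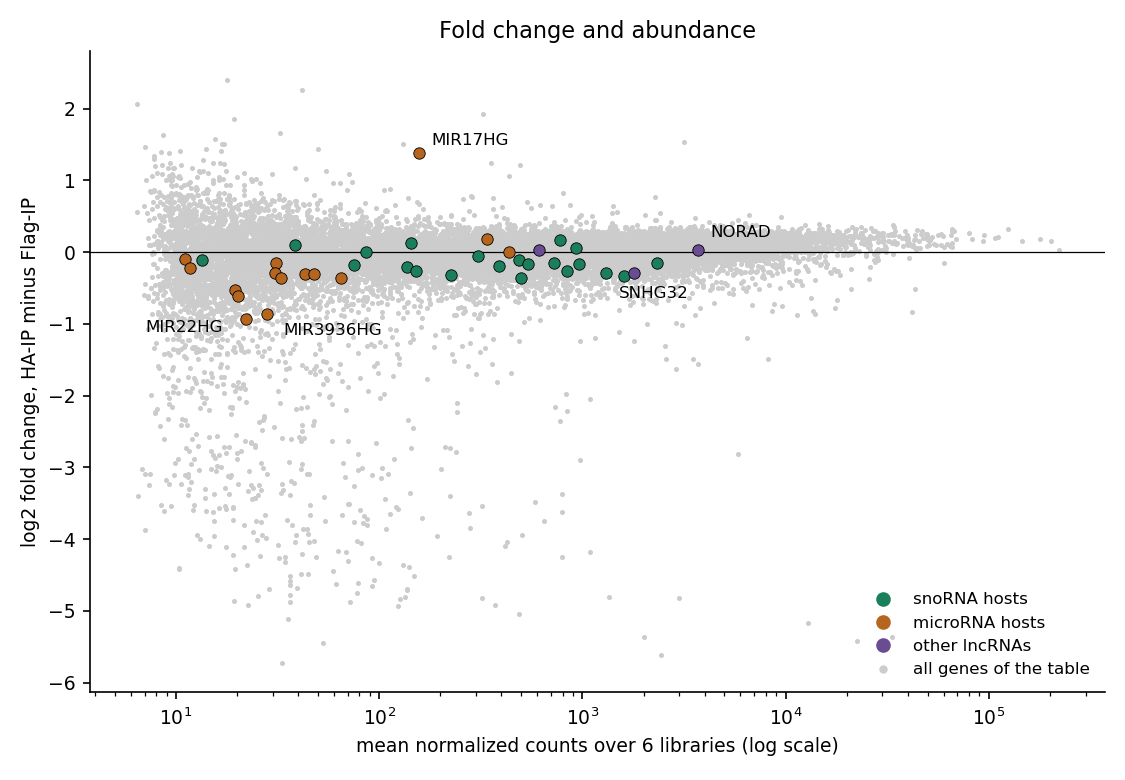
Log2 fold change (HA-IP minus Flag-IP) against the mean normalized counts over the 6 libraries (log axis) for all 16834 genes in grey and the 39 host transcripts in colour by class. MIR17HG lies above the cloud at 1.38, while the microRNA hosts under 100 normalized counts lie below 0, where grey points spread widely.

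Hosts with and without a pyrimidine run at the start site are given side by side, and the difference between them was not tested. The 13 snoRNA hosts with a run had a median log2 fold change of -0.15 (10 lower in the HA-IPs, 1 called) and the 6 without a run had -0.18 (5 lower, none called). Among microRNA hosts the medians were -0.26 for 6 with a run and -0.29 for 8 without. A match is a property of the letters near the listed start and does not show where transcription begins in these cells.

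The protein-coding hosts of snoRNAs, a list of 34 genes of ribosomal proteins, translation factors and chaperones, are set beside the noncoding ones. Of these, 11 were called higher in the Flag-IPs and 2 higher in the HA-IPs, beside 7.10% and 5.79% of all genes. Their median log2 fold change was -0.25 with 28 lower, and without Flag-IP replicate 1 it was -0.16 with 26 lower. RPL13A, a large-subunit protein gene, had 47982, 52294 and 52820.1 normalized counts in the Flag-IPs, against 32583, 37868 and 37145 in the HA-IPs (log2 fold change -0.51, standard error 0.066, adjusted p = 0.00095 in limma). TPT1, a growth-related gene with a classic terminal oligopyrimidine start, had 17324, 10816 and 8486 in the Flag-IPs, against 3642, 3752 and 5218 in the HA-IPs. The groups overlapped in neither gene, though the Flag-IPs of TPT1 spread more widely than the gap to its HA-IPs. The log2 fold change of TPT1 was -1.49 (standard error 0.21, adjusted p = 0.0015 in limma). HSPA8, the constitutive Hsc70 chaperone, had a log2 fold change of 0.30 (adjusted p = 0.0033 in limma). Many of these genes have processed pseudogenes with which they can share reads. Whether this list and the noncoding hosts differ was not tested.

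Of 18 proteins of snoRNA particles and their assembly, 2 were called toward the HA-IPs and 1 toward the Flag-IPs, beside 12.9% of all genes called in either direction, with a median of 0.01. SHQ1 and RPAP3, which help assemble the particles, differed by 0.20 and 0.18 on the log2 scale (adjusted p = 0.031 and 0.045 in limma), and NOP10, a core protein of H/ACA particles, had -0.55 (adjusted p = 0.032 in limma). Of 21 genes of nonsense-mediated decay, which removes spliced snoRNA host RNAs, 6 were called toward the HA-IPs and 1 toward the Flag-IPs, beside 5.79% and 7.10% of all genes, with a median of 0.002. SMG8, a subunit of the SMG1 kinase complex, had 3117, 3016 and 3198 normalized counts in the Flag-IPs, against 4113, 3867 and 4049 in the HA-IPs (log2 fold change 0.37, standard error 0.050, adjusted p = 0.0013 in limma). EIF4A3, the helicase of the exon junction complex, had 0.49, the release factor gene GSPT1 had 0.31 and NBAS had 0.31 (adjusted p = 0.0024, 0.0033 and 0.0071 in limma). Of 17 microRNA machinery genes in the table, only XPO5, the exporter of microRNA precursors, was called, at 0.22 higher in the HA-IPs (adjusted p = 0.018 in limma), beside the same 5.79%. DROSHA, DICER1 and the AGO genes of that list did not pass, and its median was 0.004.

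**Figure D5:**
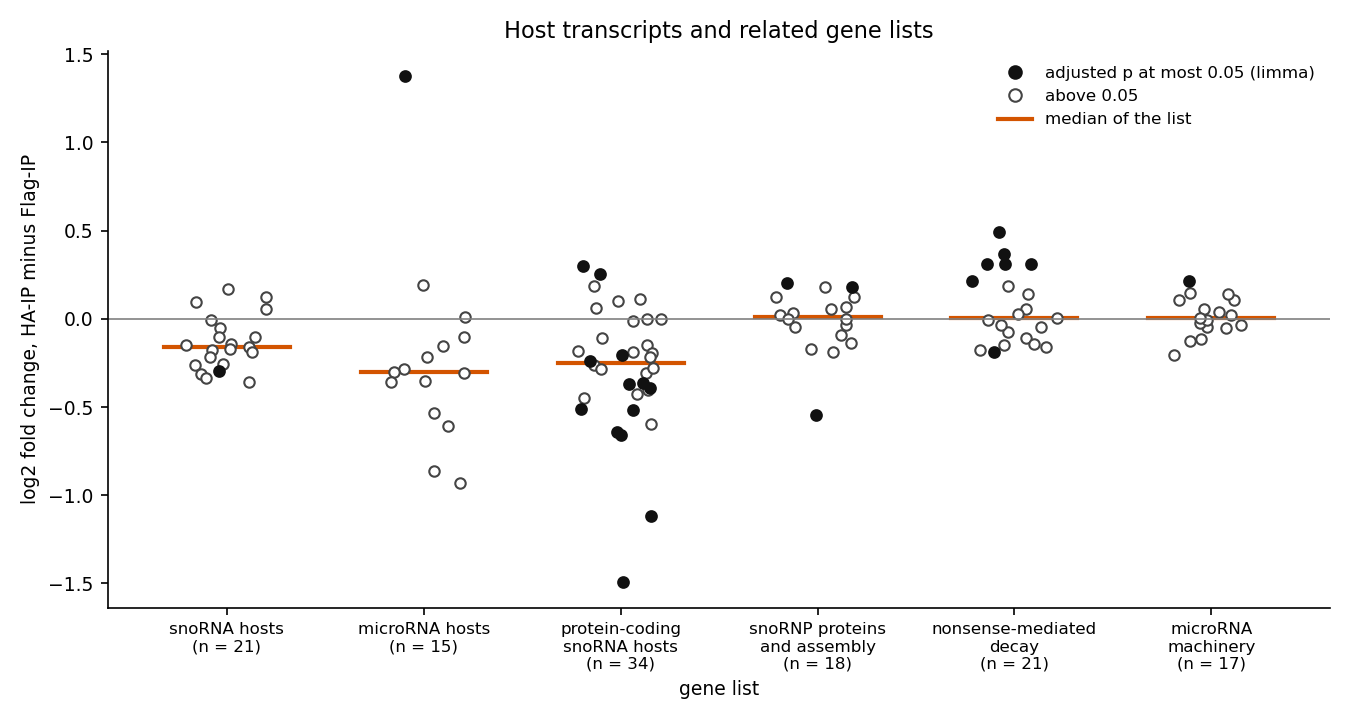
Log2 fold changes (HA-IP minus Flag-IP) of the snoRNA hosts, the microRNA hosts and 4 related gene lists; each point is a gene, filled where the adjusted p in limma is at most 0.05, and the orange line is the median of the list. The medians of both kinds of noncoding host (-0.16 and -0.30) and of the protein-coding hosts (-0.25) lie below 0, those of the other lists near 0, and MIR17HG is the single high point among the microRNA hosts.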

How the data were processed

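RNA recovered in 3 Flag-IPs and 3 HA-IPs was poly(A) selected and sequenced in pairs of 150 bp. Per the labels and the methods, the authors used Trimmomatic 0.36 for trimming, STAR 2.5.2b for alignment to GRCh38 and a minimum of 10 reads per gene in 3 samples; the submitters' processing notes also list featureCounts of Subread 1.5.2. The deposited values are a normalized signal per gene and library, the counted reads scaled by the authors with a DESeq2 size factor for each library, so their precision depends on the depth of each library. The table also holds the authors' own fold changes and adjusted p-values, which were not used.

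In each library 100% of the values were whole multiples of 1 read within 0.01 read, which recovered the reads. After log2 of the value plus a pseudocount of 1, the deposited values were tested with limma 3.58.1 in R 4.3.3. The test was two-sided with a variance trend, over all 16834 genes, with the Benjamini-Hochberg adjustment and a threshold of 0.05. The pseudocount draws the fold changes of low genes toward 0. Beside those of DESeq2, the limma fold changes of low members were larger in size for some and smaller for others. edgeR 4.0.16 and DESeq2 1.42.0 on recovered reads were alternatives. Annotation came from GENCODE release 44 (16683 identifiers matched), and sequences from RefSeq tables of GRCh38.p14. Scripts were tested on simulated data.

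Libraries were grouped by their epitope tag. Values per library are given for called members that averaged at least 100 normalized counts, MIR17HG, the 7 genes the rule names and the 5 members highest per kilobase, and up to 4 called genes of smallest adjusted p per related list. SNHG29, SNHG7, MIR1915HG, MIR600HG, MIR22HG, MIR210HG, MIRLET7BHG and MIR99AHG were named after their values were seen. Some genes that are no members are not reported here by name. The members and lists were chosen with earlier results of these data known, the call of MIR17HG included.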

Additional observations from a re-analysis of the deposited data

How the results depend on the processing

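MIR17HG was called higher in the HA-IPs in all 19 alternatives, with log2 fold changes from 1.29 to 1.51 and adjusted p-values up to 0.022 in limma, edgeR or DESeq2. The other calls were less stable. The number of members called was 1 without the variance trend in limma or at an adjusted p of at most 0.01, with 0 higher in the Flag-IPs. Without the trend, calls over all genes also fell, from 2171 to 188, and their number at 0.01 is not given. On the Flag-IP side, 1 member was called with the replicate block, with GC content and length trends removed, and with both. Calls over all genes were 1662 with the block, and 2608 and 2176 of 16683 genes with the trends removed, without and with the block. With each library left out in turn, the number called ran from 1 to 4, that called higher in the HA-IPs from 1 to 1 and that higher in the Flag-IPs from 0 to 3, while the median log2 fold change of the members ran from -0.26, without HA-IP replicate 3, to -0.14. On the Flag-IP side, 0 were called without Flag-IP replicate 2, HA-IP replicate 1 or HA-IP replicate 2. In these fits the calls over all genes also fell, to 620, 780 and 900. Without Flag-IP replicate 3, 3 members were called there, SNHG3 among them, and calls over all genes rose to 3059. OIP5-AS1 kept its call in 13 and SNHG32 in 10 of the 19 alternatives, and SNHG16 passed with the same total per library (adjusted p = 0.038 in limma).

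Signs turned for members near 0. MALAT1 had -0.0259 with the same total per library and -0.00566 with GC content and length trends removed, also with the replicate block, and ran from -0.0361 to 0.107 with a library left out. NORAD had -0.0172 with the same total per library and -0.00366 with quantile normalization. With a library left out, DANCR ran from -0.232 to 0.0625 and SNHG1 from -0.0312 to 0.130. The median level of the members was 72.7 normalized counts per kilobase of the longest transcript, against 41.6 per kilobase of exon sequence. With members matched by GENCODE symbol too, an alternative chosen after seeing the data, 4 of 49 were called, 3 higher in the Flag-IPs, and the median stayed at -0.17. The cause of these changes was not tested.

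Same-numbered libraries did not deviate together from their group means: their correlations were -0.16, 0.03 and -0.31 over 13141 genes. Those of differently numbered libraries ran from -0.24 to 0.30. With 3 libraries per group these values cannot tell whether same-numbered IPs shared a culture. The replicate block moved the calls over all genes from 2171 to 1662. Calls over all genes were 188 without the variance trend and ran from 620 to 3059 with a library left out. For the 16 members with a mean under 100 normalized counts, depth and the spread of 3 replicates leave wide intervals.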

Other observations

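The seeds of the MIR17HG cluster recur in microRNAs hosted by a protein-coding gene. MCM7, a subunit of the replicative MCM helicase, carries miR-106b, miR-93 and miR-25 within its gene, and it was looked up after the values of MIR17HG had been seen. The mature strands from RefSeq (GRCh38.p14), with bases 2 to 8 in capitals, share their seeds with miR-17-5p and miR-20a-5p (the first pair) and with miR-92a-3p (the last).
miR-106b-5p: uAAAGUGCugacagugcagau
miR-93-5p: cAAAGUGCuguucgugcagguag
miR-25-3p: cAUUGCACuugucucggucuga

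For MCM7, replicates 1 to 3 held 42219, 42715 and 44631 normalized counts in the Flag-IPs, against 48199, 47302 and 48215 in the HA-IPs. The groups did not overlap, and MCM7 differed by 0.15 on the log2 scale, with a standard error of 0.048 (adjusted p = 0.0618 in limma, 0.0647 in edgeR and 0.0211 in DESeq2), so that it passed the threshold in DESeq2 only. The difference between the fold changes of MCM7 and MIR17HG was not tested.

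Another 10 rows of the table lack a matching symbol and are host genes by their GENCODE symbol. Among them, MIR4733HG was called higher in the Flag-IPs, with 16.9, 22.3 and 18.4 normalized counts in its replicates 1 to 3, against 9.17, 1.98 and 5.51 in the HA-IPs (log2 fold change -1.79, standard error 0.51, adjusted p = 0.0402 in limma, 0.0409 in edgeR and 0.0533 in DESeq2), so that the call was lost in DESeq2. These values rest on few reads and the gene overlaps NF1 on the opposite strand. MIRLET7IHG, a let-7 host, had 27.7 to 35.1 in the Flag-IPs and 35.3 to 47.5 in the HA-IPs, and SNHG4, in which SNORA74A lies, had 298 to 367 and 249 to 296. Their groups did not overlap, and neither passed the test (adjusted p = 0.307 and 0.111 in limma).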
